A study of Mus musculus with 4 samples.

Results

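Runx2 is a runt-domain transcription factor required for osteoblast formation, and it binds DNA at a short core motif whose letters are TGTGGT. Promoters hold the sites where transcription starts. Most promoters of broadly used genes lie in DNA rich in CpG dinucleotides, whereas many promoters of tissue-restricted genes do not. Runx2 occupancy was measured by chromatin immunoprecipitation followed by sequencing (ChIP-Seq) with the Runx2 antibody M70 in MC3T3-E1 subclone 4, a mouse preosteoblast line from calvaria (strain C57BL/6) that is a single clone grown in culture and was used at passages 28 to 31. Proliferating cells were taken on day 0, matrix-depositing cells on day 9 and mineralizing cells on day 28, after ascorbic acid and beta-glycerophosphate had been added to start osteogenic differentiation; the labels name no genetic change, and all groups are the same line. Input DNA without immunoprecipitation came from day 9 cells.

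The regions described here are promoters at which a Runx2 peak was called on day 9 and on neither of the other days. Peaks of the 3 days that shared at least 1 bp were merged, and a region was kept when it held a day 9 peak, no day 0 peak and no day 28 peak, and when its centre lay within 1 kb of the start site of a protein-coding transcript (GENCODE M1, mouse genome mm9). The members were thus chosen by the presence and absence of peaks in the same lists, so their restriction to day 9 and their nearness to a start site are not findings. The rule gave 1206 regions, which were 1.78% of the 67703 merged regions and 9.79% (exact 95% interval 9.27 to 10.3) of the 12315 regions near a start site. Promoter regions with a peak on all 3 days numbered 8577, and those with peaks on days 9 and 28 but not on day 0 numbered 1884. Another 22123 regions had a peak on day 9 only but lay farther from any start site, and these are called distal below.

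Each day is represented by one peak list, made from pooled libraries, so no difference between days carries a replicate error and none was tested. The deposited lists hold 25457 peaks on day 0, 60596 on day 9 and 40330 on day 28, with a median score of 271, 265 and 331. The score is the negative log10 of the peak caller's p multiplied by 10, and every list starts at a score of 100, which is a p of 1e-10. A region without a peak on a given day may therefore hold signal below that limit on that day. The lists themselves give no read numbers. The study's library summary lists raw reads per day, most for day 0 and fewest for day 28. Reads per peak were not analysed here, and what part read depth has in the presence or absence of a peak was not tested. Regions are not replicates, and the tests and intervals that follow cover counting error over regions only.

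Sequence at the centres is shown first for the members with the highest day 9 scores and for the highest-scoring members with the core motif and no peak of another day within 10 kb, because the motif is the feature on which the comparisons below rest. Wnt7b, Vav1 and Il2rb are shown as members of the functional gene lists that hold the motif. The letters were read from the plus strand of mm9, 101 bases around the region centre. Capitals mark each TGTGGT, or ACCACA where the motif lies on the minus strand. The windows of Hrh1, Gm10807, Wnt7b, Vav1 and Il2rb held a single match in unlike sequence.
Hrh1, chr6:114407539-114407639: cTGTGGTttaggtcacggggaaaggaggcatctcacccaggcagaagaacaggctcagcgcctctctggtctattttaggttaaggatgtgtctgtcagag
Gm10807, chr10:57695165-57695265: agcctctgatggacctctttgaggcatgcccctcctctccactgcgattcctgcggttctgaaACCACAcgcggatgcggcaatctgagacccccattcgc
Wnt7b, chr15:85412986-85413086: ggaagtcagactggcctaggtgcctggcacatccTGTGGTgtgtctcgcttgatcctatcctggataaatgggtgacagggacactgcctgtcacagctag
Vav1, chr17:57451288-57451388: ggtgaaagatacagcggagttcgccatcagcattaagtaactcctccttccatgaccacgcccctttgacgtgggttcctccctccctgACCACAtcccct
Il2rb, chr15:78325669-78325769: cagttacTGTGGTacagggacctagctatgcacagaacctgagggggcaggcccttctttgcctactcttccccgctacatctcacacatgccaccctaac

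Other windows with the motif consisted largely of repeated units, and all of those shown here except that of Muc3 held 2 or more matches. In Olfr279, Pde9a and Spaca3 the units mostly alternated T and G, and in Muc3 and Krtap5-3 a longer unit recurred.
Muc3, chr5:137626373-137626473: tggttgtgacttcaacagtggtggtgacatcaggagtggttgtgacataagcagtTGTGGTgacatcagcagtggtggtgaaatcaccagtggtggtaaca
Olfr279, chr15:98327315-98327415: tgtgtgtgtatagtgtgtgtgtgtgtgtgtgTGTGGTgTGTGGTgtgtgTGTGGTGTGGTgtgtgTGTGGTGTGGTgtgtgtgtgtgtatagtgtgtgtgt
Pde9a, chr17:31569042-31569142: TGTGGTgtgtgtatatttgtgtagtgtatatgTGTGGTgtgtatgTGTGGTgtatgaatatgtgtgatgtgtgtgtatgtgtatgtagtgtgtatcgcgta
Krtap5-3, chr7:149387780-149387880: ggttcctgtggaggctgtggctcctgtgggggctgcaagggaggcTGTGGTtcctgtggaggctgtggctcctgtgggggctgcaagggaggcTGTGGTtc
Spaca3, chr11:80671288-80671388: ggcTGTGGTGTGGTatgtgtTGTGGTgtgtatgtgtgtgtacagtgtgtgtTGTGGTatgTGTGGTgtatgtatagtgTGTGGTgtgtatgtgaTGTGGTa

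Among the 6 highest day 9 scores, 3 windows held no match. They are shown as members whose high score came without the core motif at the centre. The window of Rpl26-ps4 also consisted of a longer unit that recurred with few changes.
Acat2, chr17:13152401-13152501: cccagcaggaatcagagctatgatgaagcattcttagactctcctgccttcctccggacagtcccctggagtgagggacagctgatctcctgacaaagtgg
Uts2r, chr11:121021906-121022006: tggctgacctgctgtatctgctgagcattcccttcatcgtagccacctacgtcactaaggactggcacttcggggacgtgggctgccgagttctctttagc
Rpl26-ps4, chr16:17710882-17710982: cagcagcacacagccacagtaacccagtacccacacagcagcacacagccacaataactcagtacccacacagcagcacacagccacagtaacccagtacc

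Across the members, the core motif lay within 50 bp of the centre in 237 of 1206 regions, which is 19.7% (exact 95% interval 17.4 to 22.0). The share in a window of equal length centred 500 bp away, on the higher-coordinate side, was 5.64%. In 220 members the motif was present at the centre and absent from this flank, and in 51 the reverse held, a difference larger than counting error (two-sided exact McNemar test, p = 3.48e-26, n = 1206 regions). The flank on the lower-coordinate side held the motif in 6.799% of members, and windows centred on the 45962 protein-coding start sites held it in 5.05%. Of merged regions of every pattern, 24.2% held the motif at the centre, so the members lay below the level of all regions and above the level of start sites.

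Within 50 bp of the centre, the members held the motif more often than other Runx2-occupied promoters and less often than distal regions of the same day. Merged regions spanned a median of 489 bp in members, 1306 bp in promoters of all 3 days and 851.5 bp in those of days 9 and 28. The window of 101 bases thus covered a smaller part of the other promoter regions. What part region width has in the differences was not tested. Promoter regions of all 3 days had the motif at the centre in 4.06% and those of days 9 and 28 in 8.17%, which is 15.6 points (interval 13.4 to 17.97) and 11.5 points (interval 8.96 to 14.1) below the members. Distal day 9-only regions had it in 33.0%, which is 13.4 points (interval 10.9 to 15.6) above the members. All 3 differences exceeded counting error (two-sided Fisher exact tests, Benjamini-Hochberg adjusted p = 1.19e-71, 2.85e-20 and 1.27e-23). The flank on the higher-coordinate side also held the motif more often in distal regions, at 7.75% against 5.64% in members. What part the surrounding sequence has in the difference from distal regions was not tested. In promoter regions of all 3 days the flank held the motif in 5.14%, slightly more than the centre. At their median width of 1306 bp, however, a flank at 450 to 550 bp from the centre lies inside the region. For this class it is not a comparison with sequence outside the region.

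**Figure D1:**
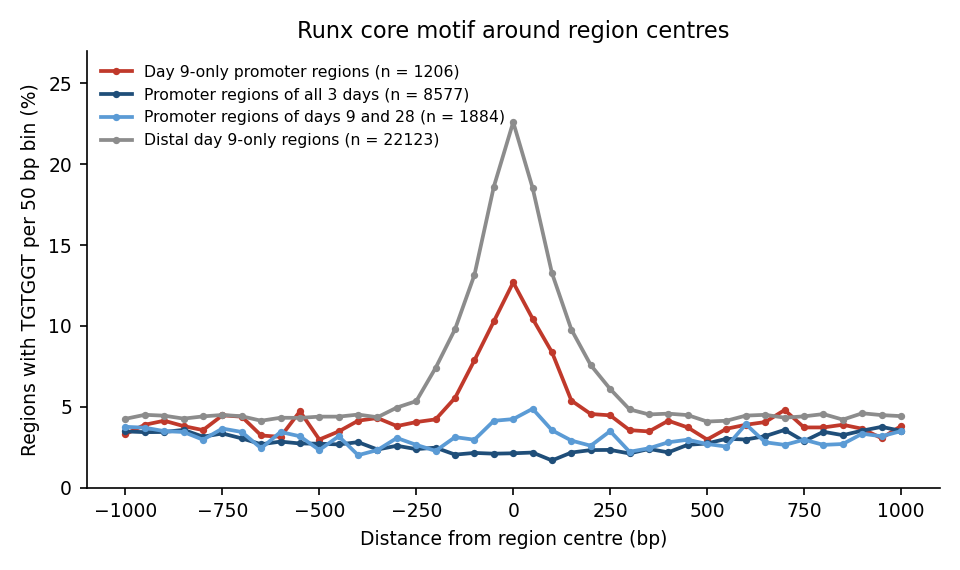
Share of regions (%) with TGTGGT on either strand in each 50 bp bin, against the distance from the region centre (bp), for members and the 3 other classes. In the central bin the members stand at 12.7%, below the distal day 9-only regions and above promoter regions of days 9 and 28 (4.25%), which rise less, and of all 3 days (2.13%), which dip around the centre.

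Of the 237 members with the motif, 175 held 1 match and 62 held 2 or more. Where there was 1 match, its middle lay a median of 21.5 bp from the centre (interval 17.5 to 24.5), and 59.4% lay within 25 bp. The motif read TGTGGT on the strand of the nearest start site in 97 of the 175, or 55.4% (interval 47.7 to 62.9), which includes an even split. An exact tandem repeat of at least 24 bases, with a unit of at most 6 bases, was present in 16 member windows (1.33%) and in 5.56% of distal day 9-only windows. This definition misses interrupted repeats, since it marks 0 of the 10 members with the highest scores, Olfr279 and Pde9a among them, and 7 of the 62 with 2 or more matches. Without the marked windows the motif share of the members was 19.2%. With only single-match windows counted it was 14.5%, which still exceeded the flank by 9.12 points (exact McNemar p = 5.85e-14).

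The motif was most frequent in the few members with the highest scores. Among members with a score under 200 it lay at the centre in 17.5% of 922 regions, among those of 200 to under 500 in 24.1% of 249, and among those of 500 and over in 45.7% of 35 (interval 28.8 to 63.4). When the members were split by score into 3 groups of 402, the share was 18.4% in the lowest, 17.4% in the middle and 23.1% in the highest group, with overlapping intervals, and no trend was tested. In the other promoter classes the share was between 3.92% and 8.59% in each of these score ranges. In distal day 9-only regions it was 30.8%, 36.4% and 48.1% in the same order, so higher shares at higher scores were not particular to the members. The members with the motif at 500 and over include windows of repeated units shown above, such as those of Olfr279 and Pde9a. At scores under 200, promoter regions of all 3 days held the motif in 7.41% and those of days 9 and 28 in 7.67%. The difference from the members was then 10.1 and 9.79 points (Fisher exact tests, adjusted p = 1.51e-04 and 1.10e-06), in a comparison chosen after the data were seen.

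Within the members, those at CpG-poor start sites held the motif in 22.9% of 868 regions and those at CpG-rich start sites in 11.2% of 338, a difference of 11.7 points (interval 7.03 to 15.8, two-sided Fisher exact test, adjusted p = 4.95e-06). The flank on the higher-coordinate side differed in the same direction, with the motif in 6.57% and 3.25%. What part the surrounding sequence has in the difference at the centre was not tested. A start site was called CpG-rich when the 500 bp on either side had a GC content of at least 50% and a ratio of observed to expected CpG of at least 0.6. Members without another day's peak within 1 kb of the start site held the motif in 20.2% and those with one in 17.5%, and this difference of 2.72 points (interval −2.94 to 7.67) did not pass the test (two-sided Fisher exact test, adjusted p = 0.376). By position, the share was 23.8% in introns, 23.4% outside transcripts, 15.3% in coding exons and 13.4% in untranslated exons. The intervals of the first pair and the last pair overlap within each pair.

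Few members lay at CpG-rich promoters. The nearest start site was CpG-rich in 338 of 1206 members, or 28.0% (interval 25.5 to 30.7), against 81.4% of promoter regions of all 3 days, 55.9% of those of days 9 and 28, and 43.7% of all protein-coding start sites. The differences from the occupied promoter classes were −53.4 points (interval −56.0 to −50.7) and −27.9 points (interval −31.2 to −24.4), with adjusted p = 8.74e-300 and 3.34e-53 by Fisher exact tests. The score moved with this difference. Among regions with a day 9 score under 200, 29.7% of members, 31.5% of the 216 promoter regions of all 3 days and 44.0% of the 430 of days 9 and 28 had a CpG-rich start site. In these low-scoring regions the first difference was −1.76 points and did not pass the Fisher exact test (adjusted p = 0.621), while the second was −14.2 points (adjusted p = 8.37e-07).

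**Figure D2:**
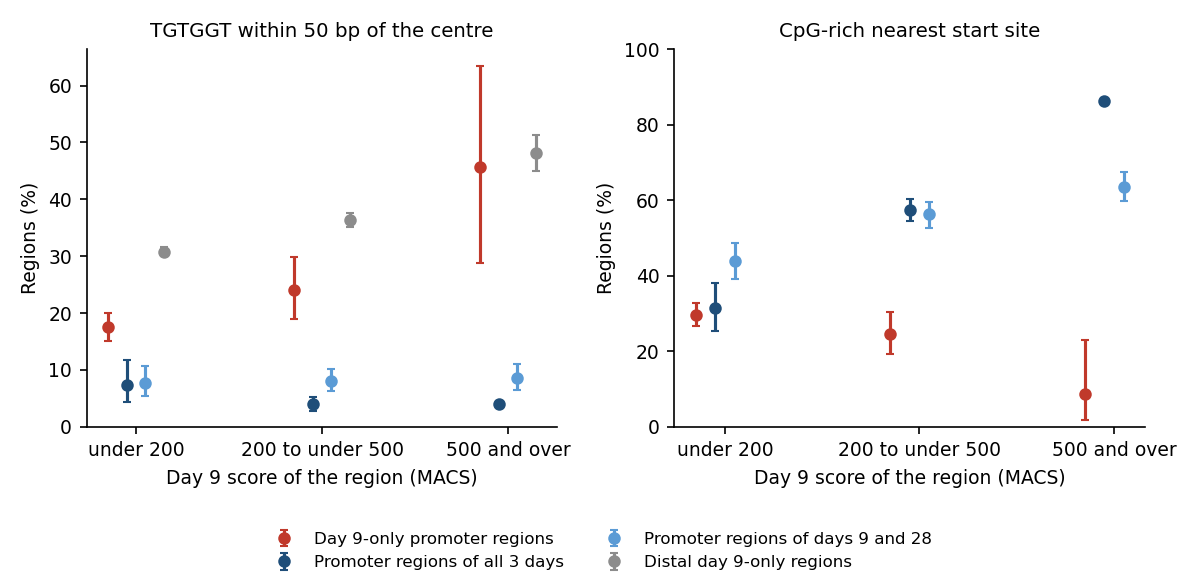
Share of regions (%) with TGTGGT within 50 bp of the centre (left) and with a CpG-rich nearest start site (right), by the MACS score of the day 9 peak, for members and the other classes; points are shares and bars are exact 95% intervals. At scores under 200 the members have 17.5% with the motif and 29.7% at CpG-rich start sites, next to 7.41% and 31.5% for promoter regions of all 3 days.

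Other motifs were searched on both strands in the same windows. The Runx variant TGCGGT was at the centre of 5.31% of members and in the flank of 1.33%. Centre and flank held it in 4.77% and 2.58% of promoter regions of all 3 days. In those of days 9 and 28 the values were 4.30% and 2.07%, and in distal day 9-only regions 2.51% and 0.981%. The GC box GGGCGG, bound by Sp factors, was found in 11.6% of member centres and 8.21% of member flanks. Its share at the centre was 32.8% in promoter regions of all 3 days, 30.25% in those of days 9 and 28 and 2.875% in distal day 9-only regions. For the motifs that follow, the values are those of members. The TATA box TATAAA was found in 6 centres (0.498%) and in 2.99% of flanks, and CCAAT in 8.87% and 12.3%. The AP-1 motif TGANTCA was present in 1.99% and 1.24%, and the TEAD motif GGAATG in 3.65% and 5.31%. These shares are descriptions of the letters in each window and were not tested.

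The member peaks were weak within the day 9 list. The score decided which peaks were listed, so these values are a description. Their median score was 145 (interval 141 to 149), which is the 24.6th percentile of all day 9 peaks, against 1330 in promoter regions of all 3 days, 353 in those of days 9 and 28 and 151 in distal day 9-only regions. A score of 200 or more was reached by 284 members (23.5%) and one of 500 or more by 35 (2.90%). The median member spanned 489 bp (interval 474 to 501). The median was 473 bp in distal day 9-only regions, and the day 9 peaks of the other promoter classes were wider, at 937 and 629 bp. Just inside the score limit stood Grin2b at 100.03, Prex1 at 100.04 and Zfp330 at 100.05.

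Members also lay farther from the start site than other occupied promoters within the same 1 kb. Their centres were a median of 350 bp away (interval 320 to 383), against 119 bp for promoter regions of all 3 days and 138.5 bp for those of days 9 and 28. Within 250 bp of the start site lay 40.2% of members, compared with 76.7% and 68.8%. The share upstream of the start site was 38.1% in members, 35.3% in promoter regions of all 3 days and 36.8% in those of days 9 and 28. The distances hold for low scores too, since regions with scores under 200 had medians of 330, 119.5 and 140 bp in the same order. No test was run, because distance was part of the rule. Just inside the limit were Mpp4 at 1000 bp, Haghl at 999 bp and Grm4 at 997 bp, and just outside it were regions near Agpat3, Plin4 and Fam55d, each 1 bp beyond it.

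**Figure D3:**
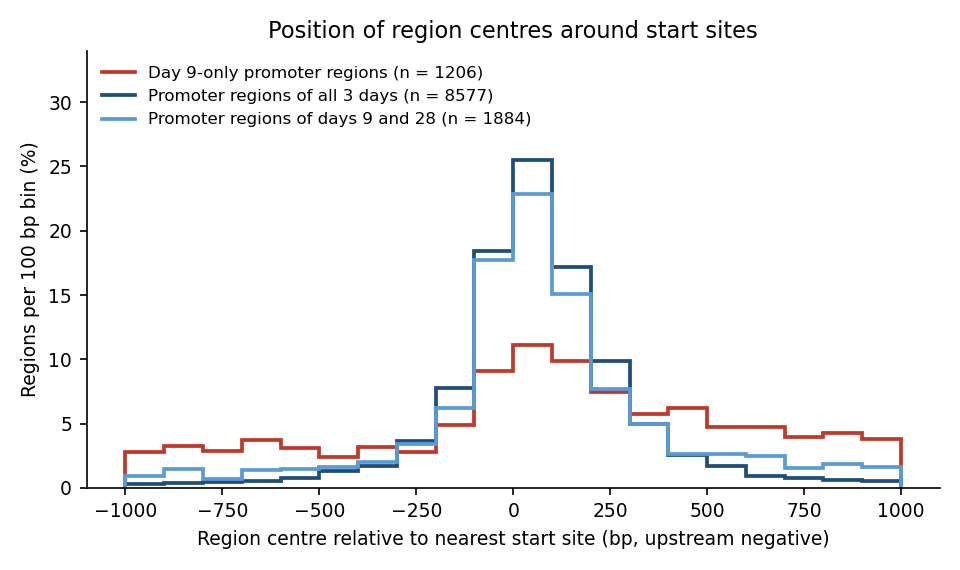
Share of regions (%) per 100 bp bin of the distance from the nearest protein-coding start site (bp, negative values upstream), for members and the other promoter classes. The other classes form a sharp peak just downstream of the start site, while the members spread over the whole 1 kb on either side, with a median of 350 bp from it.

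In transcripts, 432 member centres lay in an intron (35.8%), 367 in a coding exon (30.4%), 235 outside protein-coding transcripts (19.5%) and 172 in an untranslated exon (14.3%). The share in a coding exon was about the same in promoter regions of all 3 days (16.1%) and of days 9 and 28 (15.8%), lower than in members. Away from start sites the share in a coding exon was also highest in day 9-only regions, at 6.38%, with 2.87% in regions of days 9 and 28, 1.78% in those of all 3 days and 1.55% in those of day 28 only. Members in a coding exon lay a median of 57 bp from the middle of that exon, whose median length was 408 bp. The 250 bp on either side of their centres had a median GC content of 61.7%, against 56.1% for other members. The nearest start site belonged to a transcript with a single exon in 11.1% of members, 2.59% of promoter regions of all 3 days and 3.45% of those of days 9 and 28. What part base composition has in the exon share was not tested.

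The gene's most upstream start site was within 1 kb of 65.6% of members, compared with 91.2% and 79.7% of the other promoter classes, so that more members stood at a secondary start site. Start sites of genes on both strands were within 1 kb in 2.82% of members and 11.9% of promoter regions of all 3 days. Around the member centres, the median GC content over the same length was 57.9% and the median CpG ratio was 0.351. These were between the values of distal day 9-only regions (50.7% and 0.193) and of promoter regions of all 3 days (65.7% and 0.828).

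Many members had occupancy of another day close by without overlap. The nearest day 28 peak was a median of 6.21 kb away (interval 5.38 to 7.20) and the nearest day 0 peak 13.8 kb (interval 11.99 to 15.9; 2 members are on a chromosome with no day 0 peak). A peak of either day lay within 100 bp of 72 members (5.97%) and within 1 kb of 288 (23.9%). The closest pairs were Lmf2, 3 bp from a day 0 peak, Dlgap4, 4 bp from a day 28 peak, Otub2, 5 bp from a day 28 peak, Plxnb2, 7 bp from a day 0 peak, and Foxp4, 8 bp from a day 28 peak. The day 28 peak beside Otub2 had a score of 1796 and that beside Foxp4 of 1641, against day 9 scores of 114 and 123 for the members. For these members the label of day 9 only rests on a gap of a few bases between peak edges.

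At the other end, 475 members (39.4%) had no day 0 or day 28 peak within 10 kb, and 97 of them held the core motif. Another day 9 peak lay within 10 kb of 886 members (73.5%). The 5 isolated members with the highest day 9 score and the motif were at Olfr279 (an olfactory receptor), Pde9a (a cyclic GMP phosphodiesterase), Krtap5-3 (a keratin-associated protein of hair), Gm10807 (a provisional symbol) and Spaca3 (a lysozyme-like protein of sperm). Their day 9 scores were 1660, 945, 845, 772 and 760. Their nearest peaks of other days lay between 12972 bp (Olfr279) and 35875 bp (Krtap5-3) away. As the sequences above show, 4 of the 5 windows consist of repeated units and the window at Gm10807 does not.

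None of the 10 members with the highest day 9 scores belonged to a gene in the functional lists described below. Each list holds 44 to 126 of the 22359 protein-coding genes, so this absence among 10 members says little. The member upstream of Muc3, a mucin of the gut, reached 2145 at chr5:137625298-137627547 and had a day 28 peak with a score of 284 at 5077 bp. Olfr279 followed with 1660. The region in an intron of Acat2, an acetyl-CoA acetyltransferase, reached 1315 and was 15 bp from a day 0 peak of score 395 and 175 bp from a day 28 peak of score 1465. Uts2r, the urotensin receptor, had 1231 with the centre in its coding exon, and Hrh1, the histamine H1 receptor, had 1131 with the centre in an intron, 924 bp upstream of the nearest start site.

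The remaining 5 of these were Rpl26-ps4 (1052), annotated as coding although its symbol is that of a ribosomal pseudogene, Pde9a (945), Papln (921), Plcb4 (874) and Gm11569 (861). Papln encodes papilin of the extracellular matrix and Plcb4 a phospholipase C. The member at Plcb4 had its nearest day 28 peak 73510 bp and its nearest day 0 peak 124162 bp away. Of the 10, Acat2 alone had a CpG-rich start site and a peak of another day within 1 kb of it.

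In all, 1167 of 22359 protein-coding genes had a member within 1 kb of a start site, a background of 5.22%. Of these genes, 699 (59.9%) had no Runx2 region other than day 9-only regions near any of their start sites. Another promoter region occupied on all 3 days was present at 342 (29.3%) and one occupied on days 9 and 28 at 148 (12.7%). A total of 71 genes had 2 or more members. For 278 genes (23.8%) no day 0 or day 28 peak was found in the gene or the 10 kb on either side. Provisional symbols made up 11.7% of the genes with a member and 15.5% of all genes.

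Genes of bone matrix and mineralization had a member in 7 of 72 cases, or 9.72% (interval 4.00 to 19.0), which includes the background. Fbn2, a fibrillin of elastic fibres, had the highest score of them (340). The member of Col5a1, a fibrillar collagen chain, had a day 9 score of 185 and lay in an intron, 385 bp upstream of an internal start site. Timp3 (159) and Timp2 (154), inhibitors of matrix metalloproteinases, had members 833 and 949 bp upstream of a start site, and both had peaks of other days within 600 bp. Alpl, the tissue-nonspecific alkaline phosphatase of mineralizing cells, had a member of score 140 at chr4:137351740-137352232 in an intron, 313 bp from a CpG-rich start site, with a day 28 peak of score 1427 at 1261 bp. Fkbp10, a collagen-folding enzyme (136), and Mmp14, a membrane-bound collagenase (123), each had a day 28 peak within 200 bp. None of these 7 members held the core motif at the centre, against 19.7% of all members. With 7 members this count says little.

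Osteoblast transcription regulators had a member in 3 of 61 genes (4.92%), and all 3 genes also had another promoter region, as did 40.1% of all genes with a member. These were Tle3 (382) and Tle2 (196 and 172), co-repressors that Runx factors recruit, and Tbx3 (228), a T-box factor. Wnt signaling had 5 of 71 (7.04%), namely the ligands Wnt11 (144), Wnt3a (106) and Wnt7b (106), the secreted inhibitor Frzb (131) and the receptor Lgr6 (105). All 5 lay at CpG-rich start sites, against 28.0% of all members, and Wnt7b was the one with the core motif. BMP and TGF-beta signaling had 2 of 58 (3.45%), the co-repressor Tgif2 (190) and the ligand Tgfb1 (189), with a day 28 peak 277 and 10 bp away.

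Hedgehog, Notch and FGF signaling had 4 of 63 (6.35%), the receptors Fgfr1 (213), Fgfr3 (150) and Notch1 (132) and the growth factor-binding protein Igfbp6 (139). Day 28 peaks lay 63 bp from the member of Fgfr3 and 71 bp from that of Notch1. Cartilage and adipocyte genes had 5 of 44 (11.4%, interval 3.79 to 24.6). They were Pparg (216), the master regulator of adipocytes, the lipid droplet proteins Plin4 (174) and Plin1 (129), the fatty acid-binding protein Fabp5 (170) and the cartilage protein Ucma (114). Actin and contractility genes had 5 of 84 (5.95%), among them Tagln (214), Pdlim2 (163), Smtn (150 and 131) and Actg1 (118).

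Cell cycle genes had 2 of 68 (2.94%), both inhibitors of cyclin-dependent kinases, Cdkn1a (139) and Cdkn2c (102). The list named adhesion receptors had a member at 2 of its 74 genes (2.70%), Sdc3 (155) and Itgbl1 (106). Immune and blood cell genes had 5 of 126 (3.97%), and all 5 windows held the core motif, against 19.7% of all members. They were the macrophage receptor Emr1 (312), the Fc receptor chain Fcer1g (195), the signaling protein Vav1 (159), Cd84 (144) and the interleukin receptor chain Il2rb (107). The windows of Emr1, with 6 matches, and of Cd84 consisted mostly of repeated units of T and G. The match at Fcer1g, 5′ to 3′ on the plus strand of mm9 within the first exon, is shown here with 30 bases.
Fcer1g, chr1:173164454-173164483: aacagttccctgACCACAgttccctccttc

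For each of these 10 lists the exact interval of the share included the background of 5.22%. Counts of the motif or of CpG-rich start sites within a list rest on few members and were not tested. Among 21 families defined by gene symbol, the intervals of keratins and keratin-associated proteins, Hox genes and solute carriers lay above this background. The lower limits of Hox genes (5.71%) and solute carriers (6.01%) were close to it. The intervals were not adjusted for the number of lists and families, so some can miss the background by counting error alone. They also treat genes as independent, which neighbouring genes of a family may not be. Keratins and keratin-associated proteins had a member in 19 of 100 genes (19.0%, interval 11.8 to 28.1), and 17 of the 19 regions were centred in a coding exon, 6 held the core motif and none had a CpG-rich start site. Over all members the shares were 30.4%, 19.7% and 28.0% in the same order, and no difference was tested. The day 9 scores of the 19 regions ran from 101 to 845 with a median of 182, and the regions lay on chromosomes 7, 10, 11, 15 and 16. Keratin-associated genes are short, lie in tandem and resemble each other, so reads of these libraries may be shared between copies, and the values are uncertain.

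**Figure D4:**
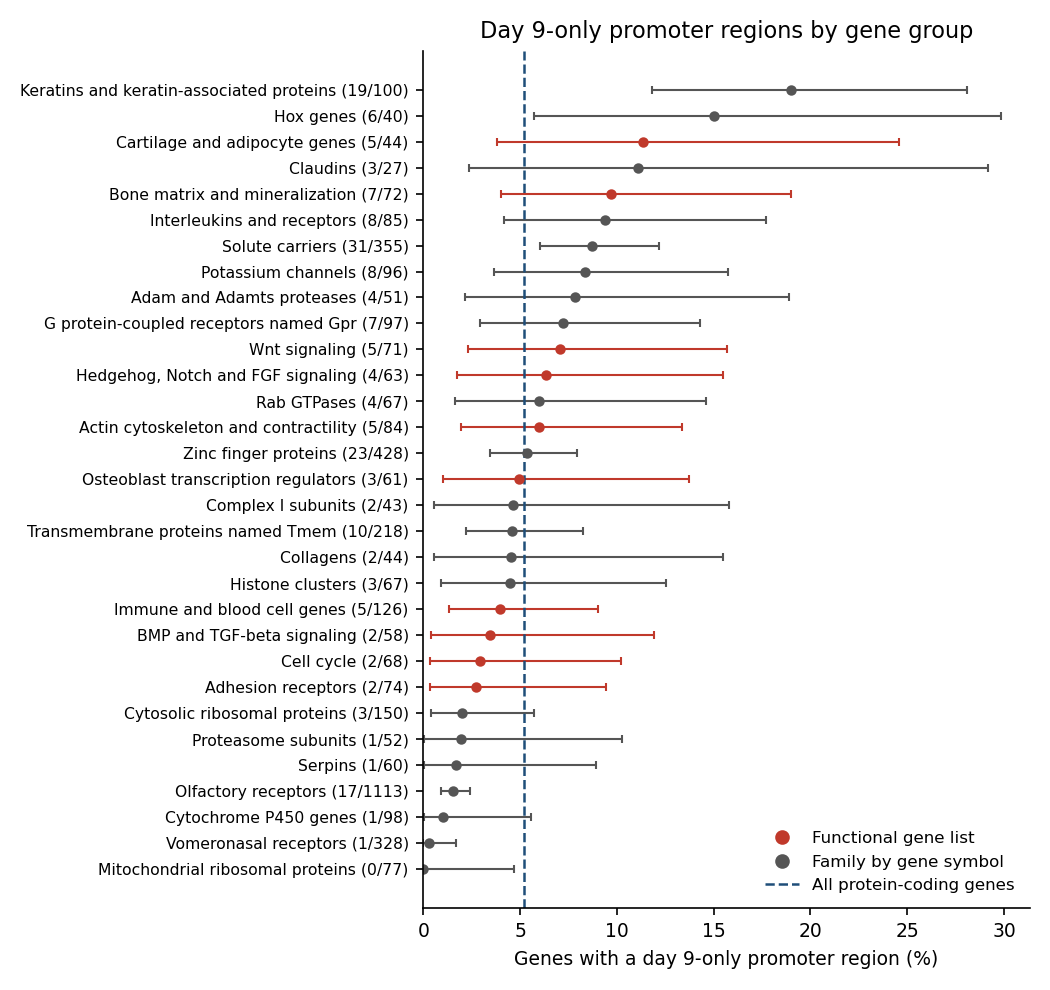
Share of genes (%) with a day 9-only promoter region in 10 functional lists and 21 families by symbol, with exact 95% intervals and the number of genes in each; the dashed line is the background of 5.22%. Keratins and keratin-associated proteins (19/100) stand highest, and mitochondrial ribosomal proteins (0/77) and vomeronasal receptors (1/328) lowest.

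Hox genes, which set position along the body axis, had a member in 6 of 40 cases (15.0%, interval 5.71 to 29.8). They were Hoxc4 (266), Hoxb8 (132), Hoxa9 (118), Hoxa5 (117), Hoxc9 (109) and Hoxc13 (101). None of the 6 had another promoter region of any pattern, which held for 59.9% of all genes with a member. Solute carriers had 31 of 355 (8.73%, interval 6.01 to 12.2). Below the background lay olfactory receptors (17 of 1113, 1.53%), vomeronasal receptors (1 of 328) and mitochondrial ribosomal proteins (0 of 77). Of the 17 olfactory receptor regions, 15 were centred in the coding exon, against 30.4% of all members.

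Members were spread unevenly over the chromosomes. On chromosome 17 a member was present at 9.17% of 1091 genes (interval 7.52 to 11.04), on chromosome 11 at 8.71% of 1653 (7.40 to 10.2), on chromosome 10 at 8.13% of 1045 (6.55 to 9.96), on chromosome 15 at 7.78% of 797 (6.02 to 9.86) and on chromosome 8 at 6.84% of 1082 (5.41 to 8.51). On chromosome 13 the share was 2.54% of 866 (1.60 to 3.82) and on chromosome X 3.33% of 932 (2.27 to 4.69). Chromosomes 10, 11 and 17 together, chosen after their values were seen, held 28.9% of the members, with 8.68% of their genes against 4.51% elsewhere. Distal day 9-only regions were densest on chromosomes 17 and 11 as well, at 17.6 and 13.7 per Mb, and chromosome X had 1.06 per Mb. The share of genes with a promoter region of all 3 days was 43.0% on chromosome 17, 49.7% on chromosome 11 and 47.1% on chromosome 10, against 41.7% over all genes.

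**Figure D5:**
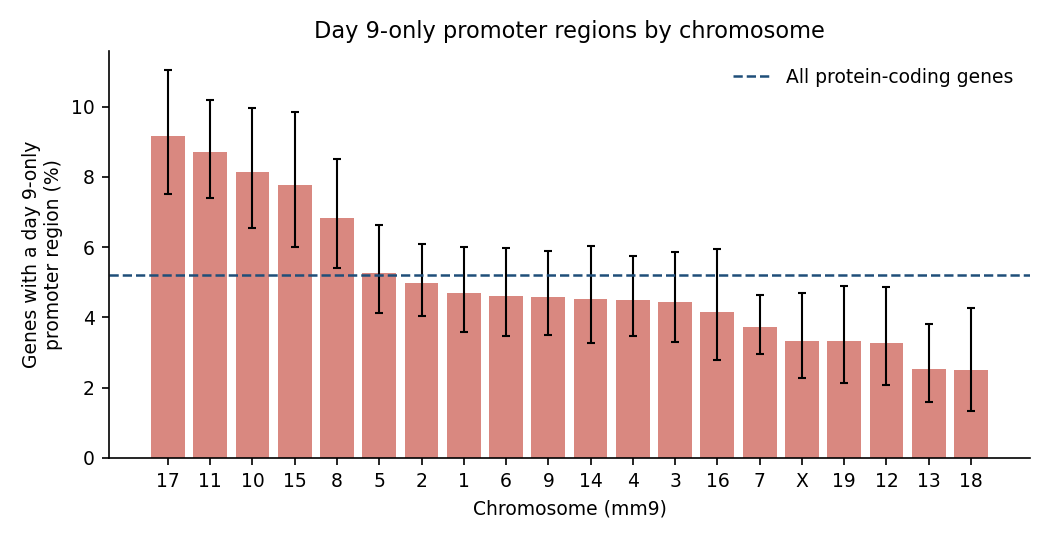
Share of protein-coding genes (%) with a day 9-only promoter region on each mm9 chromosome, in order of the share; bars start at 0, error bars are exact 95% intervals, and the dashed line is the share over all genes (5.22%). Chromosomes 17, 11, 10, 15 and 8 have intervals above the line, and chromosome Y, with few genes, is left out.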

How the data were processed

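Runx2 ChIP-Seq peak lists of days 0, 9 and 28 were analysed. According to the study's methods, 36-base reads were aligned to mm9 with Bowtie (0.12.8), and peaks were called against day 9 input with MACS (1.4.1) after base calling with CASAVA (1.6). The deposited score of each peak is the authors' negative log10 p multiplied by 10, with peaks kept under a p of 1e-10; library replicates had been pooled. How reads with several matches were treated is not given in the sources used here. From these lists, regions were merged (1 bp shared), annotated with GENCODE M1 and read from NCBIM37 (mm9) in Python 3.11.15 with SciPy 1.17.1 and pysam 0.24.0. Fisher and McNemar tests were exact and two-sided, with Benjamini-Hochberg adjustment within each family; intervals are 95% (Clopper-Pearson for shares, Newcombe for differences, order statistics for medians). The code was tested on simulated data. Named members were those with the 10 highest scores, the 5 highest with the motif and no other-day peak within 10 kb, the 3 nearest to each limit, the closest to another day's peak, and the 4 highest of each list; members of a list or family past the 4 highest were named after their values were seen. Members and gene lists were chosen with earlier results of these data known. Alternatives covered the peak p-value, list length, overlap, start site set and distance, motif and window, and CpG limits. Sequence of chromosome 18 is not shown. One gene family examined is not reported here.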

Additional observations from a re-analysis of the deposited data

How the results depend on the processing

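No paired analysis was possible because each day is one pooled list and the labels carry no replicate numbers; for the same reason no replicate could be left out. The number of members (1206) depended on the limits. It was 682 and 688 with a p of 1e-20 and 1e-50 in all lists, 284 with 1e-20 for day 9 alone, 226 with equal list lengths, 4267 when the 100 bp around peak centres had to overlap, 485, 758 and 2113 within 250, 500 and 2000 bp of a start site, and 787, 791 and 2153 with CCDS, most upstream and all transcript start sites.

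The share with the motif (19.7%) moved to 11.5% with 1e-50, 26.8% with 1e-20 for day 9 alone, 27.4% with equal lists, 9.70% with the 100 bp overlap, 16.7% and 23.2% within 250 and 2000 bp, 22.0% with all transcripts, 23.8% with TGCGGT added, 12.02% and 31.5% within 25 and 100 bp of the centre, and 14.5% with single matches. The CpG-rich share (28.0%) moved to 32.8% and 58.0% with 1e-20 and 1e-50, 22.5% with 1e-20 for day 9 alone, 32.7% with equal lists, 60.6% with the 100 bp overlap, 23.2% with peaks within 500 bp joined, 38.0%, 35.3% and 17.6% with CCDS, most upstream and all start sites, 12.7% with the stricter CpG limits, and 31.9% without chromosomes 10, 11 and 17. Which setting brings which regions in was not tested.

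Together the tests covered 1e-20 in all lists, the 100 bp overlap, and variants of motif, window, flank, CpG limits and region subset. They were not run for the other p limits, equal list lengths, other overlap rules, joined peaks, or other start site sets and distances. Whether the differences hold at those settings is therefore not known. Where tested, the motif differences from the flank and from all 3 classes kept their direction and passed the test. The range for the flank was 4.95 to 18.4 points. For promoters of all 3 days, of days 9 and 28 and distal regions it was 4.89 to 23.8, 3.63 to 17.4 and −20.4 to −6.07 points. The CpG difference from promoters of all 3 days fell to −1.76 points, not past the test, for day 9 scores under 200, an alternative chosen after the data were seen. The motif difference between members without and with another day's peak was −1.14 points (Fisher exact test, adjusted p = 0.791) with 1e-20 and 13.5 points (adjusted p = 1.84e-30) with the 100 bp overlap, and its adjusted p ranged from 1.84e-30 to 0.791 over the alternatives. The depth behind each score is not in the lists, and no alternative matched the days by reads.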
